A study of Drosophila melanogaster with 4 samples.

Results

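The X euchromatin nearest the telomere of Drosophila melanogaster was examined as the set of H3K9me3 clusters whose midpoint lies between bases 200001 and 10000000 of X on FlyBase release 5, a stretch of 9.8 Mb. Position alone chose them. The stretch held 227 of the 3258 clusters of replicate 1 (6.97%), 276 of the 3287 clusters of replicate 2 (8.397%) and 418 of the 4060 clusters of the combined list (10.3%). Trimethylation of lysine 9 on histone H3 (H3K9me3) was measured by chromatin immunoprecipitation and sequencing (ChIP-seq) in nuclei of wild-type Oregon-R-modENCODE animals at the third larval instar, with an antibody lot that the labels call new. There were 2 ChIP libraries and 2 input libraries, 1 input for each ChIP library. A cluster is a stretch that the authors called as significantly enriched. They deposited 1 list per ChIP replicate and 1 list for the replicate set, named the combined list here. All samples share one strain, genotype and stage, and no list of an input library was analysed here. The labels name neither sex nor tissue. In such bulk chromatin, strong marking in a few cells and weak marking in many cannot be told apart.

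H3K9me3 is the mark that the heterochromatin protein HP1a binds. It packs pericentromeric repeats and, in the chromosome arms, silenced transposons and other repeated sequence. The methyltransferase eggless writes much of the mark along the arms and on the small chromosome 4. The X differs from the autosomes in that males carry a single copy, which the male-specific lethal complex marks for raised transcription, and its euchromatin is known for dispersed simple repeats and short satellite arrays. Repeats and genes under the clusters were not analysed here, because the gene table at hand is on release 6 and the clusters are on release 5.

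Clusters here were mostly short, and together they took up a small share of the sequence. They covered 6.04% of it in replicate 1 and 7.99% in replicate 2, a mean of 7.02% ± 1.38 (SD, n = 2, as in all means that follow). The combined list covered 12.1%. Replicate 1 had 23.2 clusters per Mb, replicate 2 had 28.2 and the combined list had 42.7. Replicate 2 was thus the higher of the replicates in both measures. The labels do not say whether the replicates came from separate animals, so the SDs may measure technical spread only, and the depth behind each cluster is unknown.

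The median cluster was 2064 bp wide in replicate 1 and 2244 bp in replicate 2. The middle 50 percent of widths ran from 1704.5 to 2824 bp in replicate 1 and from 1769.5 to 3304 bp in replicate 2. The narrowest clusters measured 1307 and 1306 bp, close to the narrowest of the whole lists (1301 and 1302 bp), and the widest measured 11887 and 12453 bp. In the combined list the median was 2047.5 bp, with a range of 1001 to 18518 bp.

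Scores are the authors' own value for each cluster, on a scale that is not stated. Replicate 1 had a median score of 0.7497 and replicate 2 one of 0.7619, with 0.532 among combined clusters. In replicate 1, 102 clusters (44.9%) scored from 0.5 to 0.75 and 62 (27.3%) from 0.75 to 1, and only 15 (6.61%) reached 1.5. In replicate 2 the counts in these ranges were 111 (40.2%), 75 (27.2%) and 20 (7.25%). Wider clusters tended to score higher. The Spearman correlation of width and score across clusters was 0.633 in replicate 1 (227 clusters) and 0.658 in replicate 2 (276 clusters). Both values of a cluster come from the same reads, so this is a description of the lists.

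**Figure D1:**
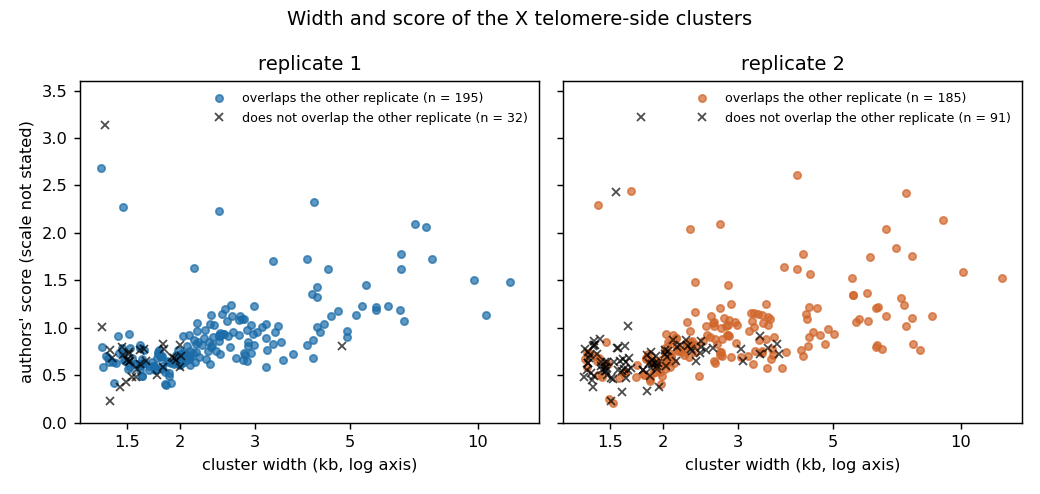
Width (kb, log axis) and authors' score of each cluster in the X telomere-side window, for replicate 1 (left) and replicate 2 (right); filled points overlap a cluster of the other replicate and crosses do not. Most crosses lie below 2 kb and below a score of 1, and 1 cross in replicate 1 and 2 in replicate 2 score above 1.5.

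The clusters were not spread evenly along the stretch. Counted from the telomeric end, with the first 200 kb left out, megabase 9 had the highest coverage, 10.9% in replicate 1 and 15.0% in replicate 2 (mean 12.9% ± 2.91). Megabase 4 had the lowest, 1.34% and 2.54% (mean 1.94% ± 0.847), with 6 and 11 clusters, compared with 47 and 52 in megabase 9. The gap between them exceeded the replicate spread, but both were picked as the extremes of coverage, which by itself widens the gap. Megabase 5 was covered at 10.1% and 13.2%, megabase 6 at 8.17% and 12.1%, and megabase 7 at 8.93% and 10.6%. Megabases 5, 6, 7 and 9 were the 4 highest in each replicate and in the combined list. They make up 40.8% of the stretch and held 64.3% and 64.9% of the covered bases of the replicates, and 63.1% of those of the combined list.

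The remaining megabases were sparser. Megabase 8, which lies inside this dense part, had a coverage of 3.34% in replicate 1 and 3.52% in replicate 2, with 17 and 15 clusters. Megabases 1, 2 and 3 were covered at 2.41%, 4.61% and 3.94% in replicate 1 and at 3.63%, 5.30% and 5.62% in replicate 2. Megabase 10 was covered at 5.99% and 7.58%. Median scores per megabase ranged from 0.714 to 1.01 in replicate 1 and from 0.646 to 0.841 in replicate 2, and the highest of replicate 1 rests on the 6 clusters of megabase 4.

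**Figure D2:**
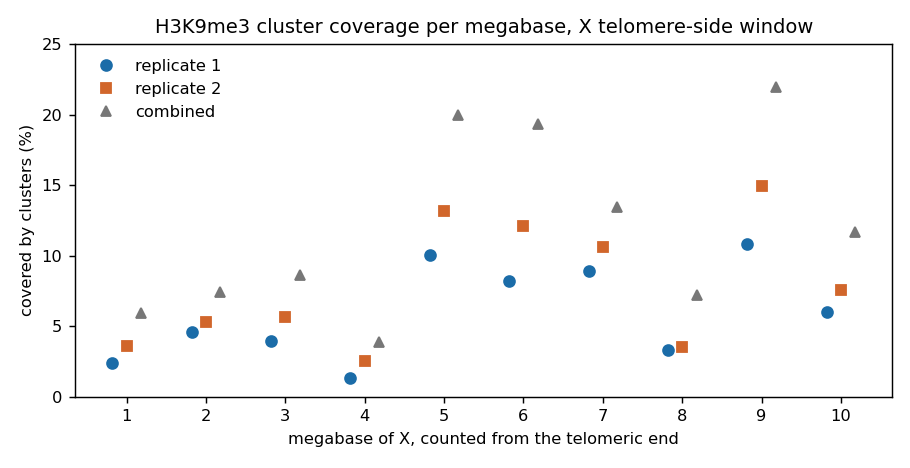
Percent of each megabase of X covered by clusters, from the telomeric end (megabase 1, without its first 200 kb) to megabase 10, for replicate 1, replicate 2 and the combined list. Megabases 5, 6, 7 and 9 are the highest in all 3 lists and megabase 4 is the lowest.

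At a finer scale, 20 of the 98 bins of 100 kb held no covered base in replicate 1, 11 held none in replicate 2 and 6 held none in the combined list. The 10 most covered bins held 37.1%, 37.4% and 36.3% of the covered bases of these lists. The most covered bin was X:5200001-5300000 in both replicates, at 29.2% in replicate 1 and 45.8% in replicate 2. In the combined list it was X:8500001-8600000, at 59.0%. The median bin was covered at 4.16%, 5.37% and 8.92%.

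Spacing was measured from the end of a cluster to the start of the next. Replicate 1 had a median spacing of 18673 bp and replicate 2 one of 14033 bp, with 8480 bp among combined clusters. Spacings were broad: 10 percent of them were under 737.5 bp in replicate 1 and 948.6 bp in replicate 2, and 29 in each replicate were longer than 100 kb. Of 226 spacings in replicate 1, 57 (25.2%) were 5 kb or less. Of 275 in replicate 2, 87 (31.6%) were. Part of the clusters thus lay in close rows and part stood alone.

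Neighbours 5 kb or less apart were joined into groups, a distance set after the data were seen. In replicate 1, 132 of the 227 clusters stood alone and 39 lay in 10 groups of 3 or more. In replicate 2, 142 of 276 stood alone and 68 lay in 14 such groups. The share in groups of 3 or more was 17.2% and 24.6%. It was 23.4% and 23.3% in the X centromere-side window described below. In the autosomal windows described below it ranged from 17.1% to 22.8% in replicate 1 and from 11.7% to 20.2% in replicate 2. Such groups were thus not particular to this stretch. The largest group of replicate 1 had 6 clusters and spanned 17.1 kb, X:4303617-4320693, of which 71.8% was covered in replicate 1 and 45.5% in replicate 2. The largest of replicate 2 had 10 clusters, a size that 2 groups reached: one at X:5240478-5300715 (60.2 kb, covered at 65.5% in replicate 2 and 37.5% in replicate 1) and one at X:8507781-8552606 (44.8 kb, covered at 74.4% and 50.4%). Their scores were moderate, with medians of 0.752 and 0.764. Both replicates thus had clusters in each of these groups. More bases were covered in the replicate that defined the group, which the choice of groups favours by construction.

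The combined list joined more clusters into rows, with 32.3% of them in groups of 3 or more. That share was 35.6% in the X centromere-side window and 21.2% to 35.3% in the autosomal windows. Its largest group had 17 clusters over 56.6 kb at X:4290391-4347015, with scores from 0.403 to 0.770, and 82.1% of that span was covered. Replicate 1 covered 29.9% of the span and replicate 2 covered 36.5%. The next had 15 clusters over 61.9 kb at X:5430350-5492214, covered at 79.8% in the combined list, 28.7% in replicate 1 and 37.5% in replicate 2. Another spanned 67.3 kb at X:8503488-8570770 with 13 clusters, covered at 79.3%, 39.8% and 49.6%. The highest score in these 3 groups was 1.07.

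The longest stretches without a combined cluster were also listed. The longest measured 197.9 kb, X:1551423-1749305, where replicate 1 had no cluster and the replicate 2 cluster X:1749283-1750883 reached over the far edge only. The next were X:9704083-9895038 (191.0 kb) and X:3478320-3620900 (142.6 kb), followed by X:2634238-2773618 (139.4 kb) and X:4851151-4988657 (137.5 kb). These 4 had no cluster in either replicate. The 4 lie in megabases 10, 4, 3 and 5, so the densely marked megabase 5 also holds one of the longest empty stretches.

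The 10 widest combined clusters fall into wide single blocks and joined rows. In 5 of the 10 each replicate had exactly 1 overlapping cluster, and in the other 5 at least one replicate split the stretch into several. The widest, X:8535827-8554344 (18.5 kb, score 0.654), held 4 clusters in each replicate, which covered 51.6% of it in replicate 1 and 75.2% in replicate 2. Next came X:8690552-8706638 (16.1 kb, score 0.737), with 4 and 3 clusters, covered at 56.0% and 85.4%. X:2313784-2329124 (15.3 kb, score 0.965) held 3 and 4 clusters and was covered at 63.3% and 84.5%. The other split stretches were X:8814221-8824388 (10.2 kb, score 0.897) and X:8914696-8924297 (9.60 kb, score 0.662). Of the 5 split stretches, 4 lie in megabase 9.

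The unsplit blocks scored higher in the combined list. The replicates did not keep this order throughout, taking the cluster that shared most bases with each stretch. The split X:2313784-2329124 had 1.22 in replicate 1 and 1.31 in replicate 2, and the split X:8814221-8824388 had 1.23 and 1.34. The unsplit X:6840893-6851646 was lower at 1.14 and 1.13, as was X:5274397-5283327 at 1.08 and 1.13. The other unsplit blocks were above, and the other split stretches below, all of these in both replicates. X:6445335-6457833 (12.5 kb, score 1.48) was covered by 1 cluster at 95.1% in replicate 1 and by 1 at 99.3% in replicate 2, and it was the widest cluster of the stretch in each replicate, with scores of 1.49 and 1.52. X:6643358-6653777 (10.4 kb, score 1.49) was covered at 94.0% and 96.9%. X:4988658-4997993 (9.34 kb, score 1.98) was covered at 81.0% and 97.0%, with scores of 2.07 and 2.13. X:6840893-6851646 (10.8 kb, score 0.989) lay under clusters for 96.8% of its length in replicate 1 and 62.0% in replicate 2, and X:5274397-5283327 (8.93 kb, score 1.01) for 75.2% and 95.4%. The widest clusters of replicate 1 also include X:6917434-6925221 (7.79 kb, score 1.72), which replicate 2 covered at 98.8%. These blocks lie in megabases 5, 6 and 7.

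The 10 highest-scoring combined clusters were of 2 kinds. In 5 of them each replicate had 1 cluster, and these were between 3204 and 9336 bp wide. X:2504720-2511054 (score 2.46) had scores of 2.33 in replicate 1 and 2.61 in replicate 2, and its replicate clusters began at the same base, 2505731. X:1521830-1529520 (score 2.20) had 2.09 and 2.43, and X:6625131-6628334 (score 2.01) had 2.23 and 2.10. X:4824371-4831081 (score 1.90) had 1.78 and 2.04, and the block at X:4988658-4997993 completes the set. In all 5 both replicates scored above 1.7.

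The other 5 were between 1001 and 1788 bp wide and were not shared by the replicates. X:6325895-6326932 (score 3.66), X:7375278-7376278 (score 3.47) and X:3620901-3621939 (score 2.66) had no base covered in either replicate. The widths of these 3, 1038, 1001 and 1039 bp, are below the narrowest cluster of each replicate list. X:6066733-6068520 (score 2.75) was covered at 99.6% in replicate 2, with a score of 3.22, and not at all in replicate 1. X:7712777-7713873 (score 1.83) was covered at 91.4% in replicate 2 and not in replicate 1. Replicate 1 had its own highest-scoring cluster of the stretch, X:7710738-7712071 (score 3.14), 799 bp from the replicate 2 cluster X:7712871-7714417 (score 2.43), and the combined list has no cluster over it. The highest single scores of the stretch thus sat on narrow clusters that the replicates did not share. Some of these values recur. A score of 3.659 was also the highest combined score of the 2L and 3L telomere-side windows described below, and 3.659 and 2.659 share their decimals. What gives such values was not tested. The reads behind them are unknown, so they are not read here as the strongest marking.

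Some narrow high-scoring clusters had a partner in the other replicate. Near the telomeric end, X:326331-327637 scored 2.69 in replicate 1, and X:326475-328152 scored 2.45 in replicate 2. X:3309786-3311256 scored 2.27 in replicate 1 and lay wholly inside a wider replicate 2 cluster of 6103 bp with a score of 1.75. Over the stretch, the 12 replicate 1 clusters that scored 1.5 or more and measured at least 2000 bp all overlapped replicate 2, and the 16 such clusters of replicate 2 all overlapped replicate 1. Under 2000 bp, 2 of 3 in replicate 1 and 2 of 4 in replicate 2 did. Wider clusters overlap another list more easily by their width alone. Over the whole lists, 90.5% of all replicate 1 clusters and 78.5% of all replicate 2 clusters overlapped. Shares by width and score were not taken there, and the narrow counts are too small for a contrast.

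The clusters that bound the stretch were as follows. At the telomeric edge the first cluster inside was X:322507-325813 (score 1.71) in replicate 1 and X:322515-326353 (score 1.65) in replicate 2. The last one outside was X:174147-175523 (score 0.539) in replicate 1 and X:178060-179469 (score 0.577) in replicate 2. At the 10 Mb edge the last inside was X:9995010-9997942 (score 0.734) in replicate 1 and X:9994502-9998073 (score 1.09) in replicate 2. The first outside was X:10058241-10060527 (score 0.893) and X:10058101-10060490 (score 0.958) in these lists. In the combined list the inside clusters were X:322439-328475 (score 1.68) and X:9994537-9998100 (score 0.930), and the outside ones were X:194649-195649 (score 2.14) and X:10057598-10060570 (score 0.858).

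A cluster counted as shared when it overlapped the other list by 1 bp or more. In replicate 1, 195 of 227 clusters (85.9%) were shared, against 90.5% of all clusters of that list. In replicate 2, 185 of 276 (67.0%) were shared, against 78.5% of the whole list. Both shares were below those of the whole lists. Shared bases came to 498503, which is 84.2% of what replicate 1 covered and 63.6% of what replicate 2 covered. The Jaccard index, shared over joint covered bases, was 0.569. By megabase it ran from 0.345 in megabase 4 to 0.675 in megabase 7. No test was made of these values.

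Overlap was more frequent among wide clusters, which meet a limit of 1 bp more easily by the rule itself. Shares by width were not taken over the whole lists, where 90.5% and 78.5% of all clusters overlapped. All 16 clusters of replicate 1 and all 29 of replicate 2 that measured 5000 bp or more overlapped the other replicate. From 2000 bp to under 5000 bp, 112 of 114 did in replicate 1 (98.2%) and 115 of 141 in replicate 2 (81.6%). Under 2000 bp, 67 of 97 (69.1%) and 41 of 106 (38.7%) did. The share also differed by score. Among clusters that scored below 0.5 it came to 58.3% for replicate 1 and 45.5% for replicate 2, and among those from 1 to 1.5 to 97.2% and 97.9%. At 1.5 or more, 14 of 15 and 18 of 20 were shared. Width and score moved together, and their parts in this order were not tested apart.

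Clusters without a partner were mostly narrow. The 32 of replicate 1 were 1583.5 bp wide at the median and scored 0.681, against 2190 bp and 0.766 for those with a partner. The 91 of replicate 2 were 1659 bp wide and scored 0.647, against 2720 bp and 0.841. Of the 32, 12 lay within 5 kb of a cluster of the other replicate, and of the 91, 33 did (37.5% and 36.3%). The combined list held a cluster over 30 of the 32 and over all 91. Such overlap was close to given, since that list took in 99.1% of the replicate 1 coverage and 98.9% of the replicate 2 coverage. Neither the nearness nor the presence in the combined list was counted over the whole lists, so neither is read as particular to this stretch.

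Pairs were formed by taking, for each replicate 1 cluster, the replicate 2 cluster that shared the most bases. The 195 pairs drew on 183 replicate 2 clusters. Their starts differed by a median of 239 bp and their ends by 254 bp, and in 44 pairs (22.6%) both ends lay within 200 bp. Replicate 2 had the wider cluster in 149 pairs and the narrower in 46. The direction of pairing favours this split, because a wide replicate 2 cluster can enter several pairs. The score of replicate 2 was higher in 119 pairs (61.0%). Over all 195 pairs the score of replicate 2 less that of replicate 1 had a median of 0.0360, with the middle 50 percent from -0.0475 to 0.137. Scores of the pairs had a Spearman correlation of 0.811 and a Pearson correlation of 0.888 across the 195 pairs, and widths had a Spearman correlation of 0.625. The pairs share a place in the genome, its mappability and its base composition, so these are descriptions with no p-value.

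**Figure D3:**
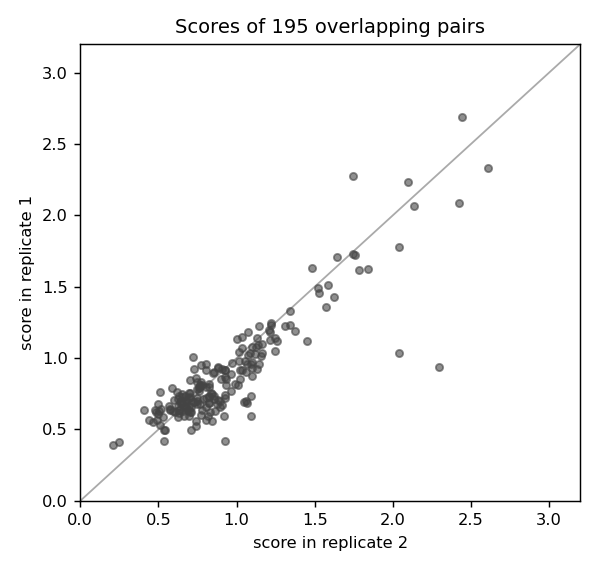
Authors' score of each of 195 overlapping pairs of clusters, replicate 1 on the vertical and replicate 2 on the horizontal axis, with the line of equal scores. Most pairs lie between 0.5 and 1.3 near the line. The largest difference is 1.36, a pair with scores of 0.940 in replicate 1 and 2.30 in replicate 2.

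The combined list was set against both replicates. Of its 418 clusters, 169 (40.4%) overlapped both replicates, 28 (6.70%) replicate 1 only, 84 (20.1%) replicate 2 only and 137 (32.8%) neither, against 31.2% with neither over the whole list. The 169 shared ones were 3527 bp wide at the median, scored 0.710 and made up 63.4% of the covered bases. The 137 found in neither were 1297 bp wide, scored 0.467 and made up 16.1%. Of the 137, 69 (50.4%) were narrower than the narrowest cluster of replicate 1, and among combined clusters of 1500 bp or more the share found in neither was 14.8%. Of the bases that replicate 1 covered, 99.1% were in the combined list, and of those of replicate 2, 98.9% were, while 49.6% and 65.5% of the combined bases lay in these lists. By its name the combined list stands for the replicate set of the same 2 ChIP libraries, so it does not count as a further sample.

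Coverage was then compared with the next stretch of X, from the 10 Mb edge to base 20422827, which leaves out 2 Mb at the centromere-proximal end. Clusters covered 6.04% and 7.99% of the telomere-side window in replicates 1 and 2, against 7.72% and 9.75% in the centromere-side window. The ratio was 0.782 in replicate 1 and 0.820 in replicate 2 (mean 0.801 ± 0.0269). Within each replicate the telomere-side window was the lower one. An exact two-sided sign-flip permutation test over the 2 replicates gave p = 0.5, the smallest that 2 replicates allow, so the design cannot reach 0.05. Cluster density was 23.2 and 28.2 per Mb in the telomere-side window, against 29.1 and 33.8 per Mb. Median widths were 2064 and 2244 bp against 2055 and 2151.5 bp, and median scores 0.7497 and 0.7619 against 0.7487 and 0.7458.

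Only the highest range of scores went the other way in the replicates. At scores of 1.5 or more, clusters covered 0.715% of the telomere-side window in replicate 1 and 1.06% in replicate 2, against 0.410% and 0.439% of the centromere-side window. The ratios were 1.74 and 2.43, on 15 and 20 clusters against 11 and 13. In the combined list the ratio was 1.41, on 16 clusters against 21. Below 1.5 each range of scores had a ratio under 1 in both replicates, from 0.590 to 0.908. Just under the limit, from 1 to 1.5, it was 0.679 and 0.625, and 0.430 in the combined list. The widest cluster of the stretch fell on both sides of the limit, at 1.49 in replicate 1 and 1.52 in replicate 2. In the combined list the ratio was 1.07 from 0.5 to 0.75 and under 1 in the other ranges below 1.5. Combined scores ran lower, with a median of 0.532 against 0.7497 and 0.7619, so a range is not of the same rank in each list. The limits of the ranges were set with the data in view, and the difference between them was not tested.

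Autosomal windows of the same length and distance from the telomere were taken on 2L, 2R, 3L and 3R. The X window was covered at 6.04% and 7.99%, against 1.87% and 2.14% for the 4 autosomal windows together, a ratio of 3.23 in replicate 1 and 3.74 in replicate 2 (mean 3.49 ± 0.362). With only clusters that scored 0.75 or more the mean ratio was 5.56. The exact two-sided sign-flip permutation test again gave p = 0.5, the smallest possible. Among the autosomal windows, 2L was the highest at 2.58% in replicate 1 and 2.76% in replicate 2, followed by 2R at 1.92% and 2.27%, 3L at 1.76% and 2.05%, and 3R at 1.22% and 1.47%. The X window exceeded each of them by more than the spread between replicates, and the ranges of the replicates did not overlap.

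**Figure D4:**
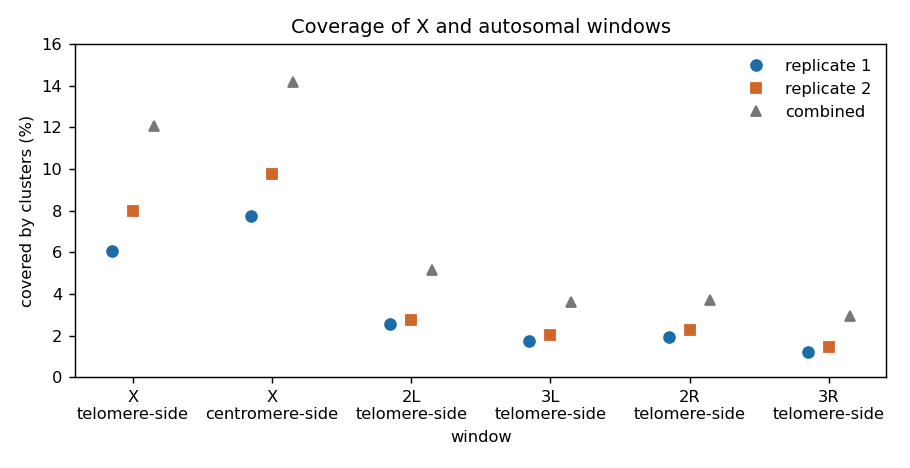
Percent of each window covered by clusters in replicate 1, replicate 2 and the combined list, for the X telomere-side window, the X centromere-side window and the telomere-side windows of 2L, 3L, 2R and 3R. In each list both X windows lie above the 4 autosomal windows.

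The excess was mainly in number. The X window had 23.2 and 28.2 clusters per Mb, against 7.93 and 8.60 in the autosomal windows. Median widths were 2064 and 2244 bp on X, against 1913 and 1999 bp. Median scores were 0.7497 and 0.7619 on X, against 0.635 and 0.619. Spacings of 5 kb or less made up 25.2% and 31.6% on X, against 21.5% and 20.4%. More clusters in the same length leave shorter spacings, so spacing is not a trait separate from number. The longest spacing of the X telomere-side window was 438.4 kb in replicate 1 and 255.5 kb in replicate 2. In the X centromere-side window it was shorter still, 297.3 and 203.0 kb. On the autosomes the longest of each window ranged from 632.6 to 1102.6 kb in replicate 1 and from 635.2 to 1244.7 kb in replicate 2.

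The ratio of X to autosomal coverage differed by score. For clusters that scored under 0.5 the ratio stood at 0.812 in replicate 1 and 1.17 in replicate 2. Those from 0.5 to 0.75 gave 2.33 and 2.44, and those from 0.75 to 1 gave 4.50 and 5.60. The ratio peaked between 1 and 1.5, at 5.63 and 7.27, with 5.21 and 5.39 at 1.5 or more. In the combined list the highest ratio was in another range, 7.71 from 0.75 to 1, with 5.21 from 0.5 to 0.75, 3.63 from 1 to 1.5 and 3.12 at 1.5 or more. Combined scores ran lower, with 39.2% of the clusters of the X window under 0.5, against 5.29% and 7.97% in the replicates. A range therefore does not hold clusters of the same rank in each list. In the lowest range X thus lay below the autosomes in replicate 1 and above them in replicate 2. In the highest range the X window held 15 and 20 clusters, and the 4 autosomal windows held 15 and 19.

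**Figure D5:**
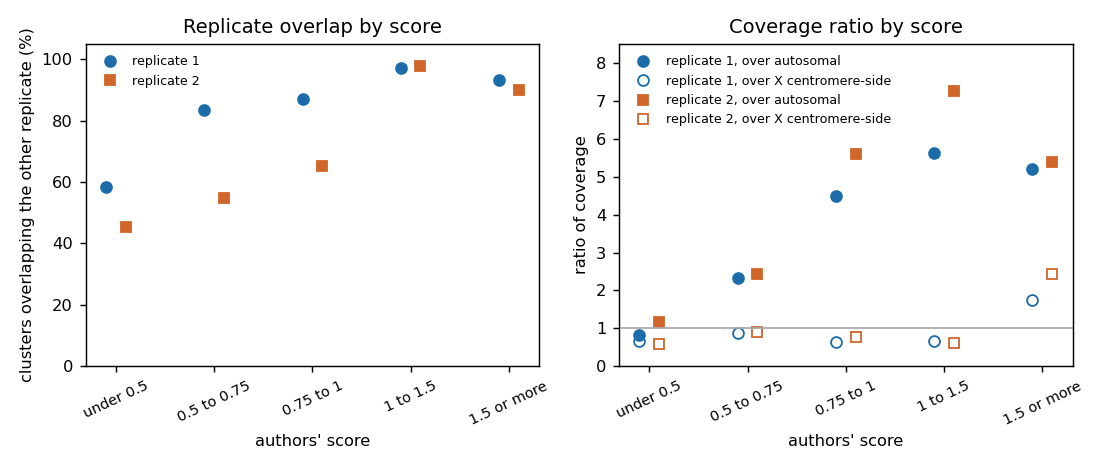
Left, percent of X telomere-side clusters that overlap the other replicate, by range of the authors' score. Right, ratio of covered percent of the X telomere-side window over the autosomal windows (filled) and over the X centromere-side window (open), with a line at equal coverage. Points are the 2 replicates. The filled points are highest from 1 to 1.5, and the open ones lie below the line except at 1.5 or more.

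Replicate overlap was similar in kind. Replicate 1 clusters overlapped replicate 2 in 85.9% of cases in the X telomere-side window, against 89.4% in the X centromere-side window and 78.1% in the autosomal windows. For replicate 2 the shares were 67.0%, against 72.2% and 69.1%. The Jaccard index was 0.569, against 0.630 and 0.579. No test was made of these differences.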

How the data were processed

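Per the file headers, clusters are on FlyBase release 5. Each carries a score per cluster that the authors deposited, on a scale that no header states, and start and end positions. Per the submitters' processing notes, Bowtie 0.12.7 was used, with no role named. How clusters were called, how reads in repeats were placed and how the combined list was made is not given in the sources used here. These steps can change which short clusters are listed and how wide they are. Read totals were not given either.

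Regions of enrichment were assigned to a window by midpoint. Coverage is the bases of these clusters inside the window over its length. Overlap needed 1 bp or more. Ratios were formed within each replicate and tested by an exact two-sided sign-flip permutation test on their log2 values. No other test was made, because 1 group of 2 samples has no reference list. The code for coverage, overlap and the Jaccard index was tested on simulated clusters without split or joined partners. The other steps had no such test. Python 3.11.15, numpy 2.4.6, pandas 2.3.3, scipy 1.17.1 and matplotlib 3.10.9 were used.

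Named were the 10 widest and 10 highest-scoring combined clusters, the 5 widest and 5 highest-scoring of each replicate, the 5 longest empty stretches, the extreme megabases and the clusters at the window edges. Groups of neighbours and score ranges were added later. The members and lists were chosen with earlier results of these data known.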

Additional observations from a re-analysis of the deposited data

How the results depend on the processing

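Of 56 alternatives over 12 results, 14 left out 1 of the 2 replicates and moved a mean by less than 1 SD by construction. Of the other 42, 26 moved a value beyond 1 SD or its exact binomial interval, or had no interval. The binomial intervals treat clusters as independent trials, which they are not, and serve as a yardstick only. None of these alternatives turned a ratio round. Single ranges of scores, not among them, did. The ratio to the X centromere-side window was 1.74 and 2.43 at 1.5 or more. The ratio to the autosomal windows was 0.812 under 0.5 in replicate 1. Stricter limits lower coverage and density by construction, a score limit raises the median score and a width limit the median width. The combined list gave a coverage of 12.1%, 42.7 clusters per Mb, a median score of 0.532, a median spacing of 8480 bp and a ratio to the X centromere-side window of 0.851. A score of 0.75 or more gave 4.57%, 13.1 per Mb, a width of 2747.5 bp, a score of 0.961, a spacing of 31354.5 bp and a ratio of 5.56 to the autosomal windows. Clusters of 2000 bp or more gave 5.32%, 15.3 per Mb, 2760 bp, 0.894, 24379.5 bp and 4.12. Without 2L the autosomal ratio was 3.92; 2L is the most covered of these arms. Overlap of 50 percent both ways gave 72.7% for replicate 1, 59.8% for replicate 2 and a score correlation of 0.852. A score limit of 0.75 on the counted clusters alone, with the other list unfiltered, gave 91.2% and 79.7%. The same limit in both lists gave 82.3% and 62.2%, and a Jaccard index of 0.541. Combined clusters that overlap neither replicate were 14.8% at 1500 bp or more and 9.09% at a score of 0.75 or more. Apart from these limits, the cause was not tested. Leaving out a replicate gave 6.04% to 7.99% coverage, 23.2 to 28.2 clusters per Mb, widths of 2064 to 2244 bp, scores of 0.7497 to 0.7619, spacings of 14033 to 18673 bp, and ratios of 0.782 to 0.820 and 3.23 to 3.74. Depth is unknown, so absence of a cluster is not absence of the mark. No paired analysis was possible because no ChIP list has an input list beside it here, so replicate numbers pair no groups. The windows were compared within each replicate.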
